A study of Homo sapiens with 6 samples.

Results

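The genes described here are 37 gene names that stood at 4 TPM or more in each of 4 libraries of parental RMS13 cells and under 1 TPM in both libraries of the resistant line RMS13-R. TPM gives a gene's share of all transcripts in a library, allowing for transcript length, so levels of different genes can be set side by side. The genes were selected on these values alone, from 55401 gene names in all, of which 10785 reached 4 TPM in every parental library. The 37 genes are 0.343% of those 10785. Because their levels in all 6 libraries chose them, the contrast between resistant and parental cells is given as a description, without a test. The reverse rule, 4 TPM or more in both resistant libraries and under 1 TPM in all 4 parental ones, found 17 genes.

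RMS13 is a human cell line of alveolar rhabdomyosarcoma, a childhood tumour with features of immature skeletal muscle, and RMS13-R was derived from it with acquired resistance to MAL3-101, an inhibitor of the HSP70 chaperones. RNA was sequenced in 3 groups of 2 libraries, called A and B: parental cells given the vehicle DMSO, parental cells given 10 µM MAL3-101 and resistant cells given 10 µM MAL3-101, each for 9 h. Both resistant libraries were from drug-treated cells, and resistant cells in vehicle were not analysed here, so an effect of the line and a response of that line to the drug cannot be told apart. Whether libraries A and B came from separate cultures, and whether RMS13-R is 1 clone, is not stated. The p-values below therefore set differences between groups only against the spread between libraries, pooled over the groups, which may not be a spread between cultures.

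Cancer cells often transcribe genes of other lineages at low to moderate levels, among them cancer-testis antigens, which in healthy adults are largely limited to germ cells, and parts of innate immune pathways. Growth factor signalling through the MAP kinases induces its own inhibitors, such as the Sprouty proteins, and so their transcripts follow the pathway's activity in many cells. Keratins and adhesion receptors of the L1 and Eph families shape contacts between cells and are expressed in patterns that differ widely between lines.

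The libraries expressed most markers of the tumour type that the labels give, which cannot show the line itself. Of 10 rhabdomyosarcoma and muscle markers, 9 stood at 1 TPM or more in every library, and the other, MYF5, was listed at 0 in all 6. Single markers differed in both directions. CHRNA1 was lower in resistant cells (52.1 and 49.9 TPM) than in parental cells with MAL3-101 (315 and 312 TPM). PAX3 was higher, at 75.3 and 76.7 TPM against 51.4 and 47.4 TPM. The summed level of the 10 markers was 3020 to 3100 TPM with DMSO, 2680 to 2700 TPM in parental cells with MAL3-101 and 2480 to 2510 TPM in resistant cells. Fibroblast markers, 6 in number, summed to 19.4 to 21.4, 25.6 to 27.0 and 2.80 to 3.34 TPM, most of it COL1A1, PDGFRA and THY1, and so were low in the same libraries as the genes described here; their part in the results was not tested. Neural markers summed to 78.2 to 95.2 TPM in parental and 68.8 to 72.5 TPM in resistant libraries, and 3 melanocyte markers to 2.23 TPM or less. Of the parental pairs, the DMSO pair was the less alike for the genes described here. Between its libraries 9 of the 37 (24.3%) differed 1.5-fold or more. The share was 3.10% of the 10785 genes and 4.73% of the 5559 of these with a parental mean under 30 TPM. Only PTPRE differed that much between the parental MAL3-101 libraries, against 0.306% of the 10785 genes. In all, 5 members differed 2-fold or more between the DMSO libraries, namely GP6, KRT18, BST2, KRT7 and BPIFB4. The resistant pair, under 1 TPM in every member, was not compared in this way. Some members spread as much there, such as TSPAN15 with 0.84 and 0.39 TPM.

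In parental cells the 37 genes were expressed at low to moderate levels. Their parental means ran from 4.50 to 29.0 TPM with a median of 8.52 TPM, against a median of 28.8 TPM for the 10785 genes. Among the 37, 10 had a parental mean of 10 TPM or more and 4 one of 20 TPM or more, and 0 reached 30 TPM, a level at which 5226 of the 10785 genes stood. Set against the 5559 genes under 30 TPM, the 37 were 0.666%. Summed over the 37 genes, the libraries held 389 and 382 TPM with DMSO, 373 and 358 TPM in parental cells with MAL3-101, and 15.3 and 13.1 TPM in resistant cells. In bulk RNA such a drop can mean fewer cells that express a gene or less RNA in each cell, and these cannot be told apart.

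**Figure D1:**
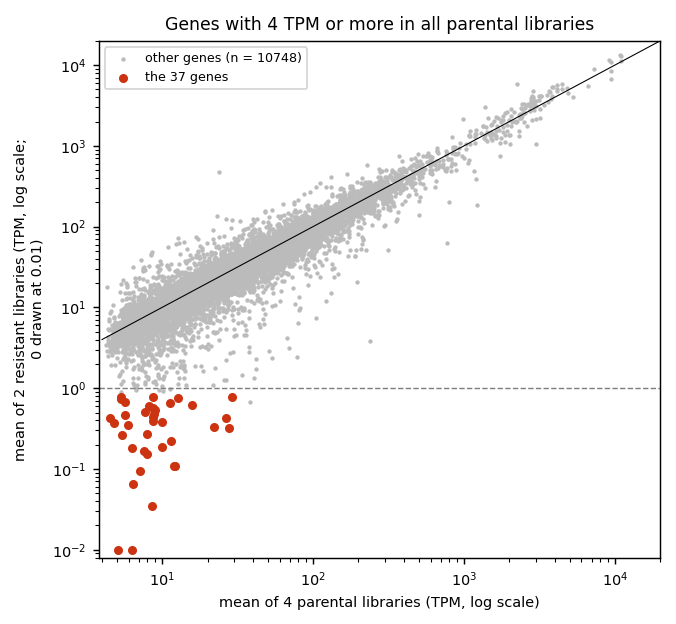
Mean TPM in the 2 resistant libraries (vertical axis) against mean TPM in the 4 parental libraries (horizontal axis) for the 10785 genes at 4 TPM or more in all parental libraries, both axes logarithmic. The 37 genes are red and lie under the dashed line at 1 TPM by their selection, all at parental means of 29.0 TPM or less. The 6 grey genes under the line had a resistant mean under 1 TPM but 1 TPM or more in a single resistant library.

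Few genes crossed the whole distance from 4 TPM to under 1 TPM. Of the 10785 genes, 10376 (96.2%) stayed at 4 TPM or more in both resistant libraries, 312 were under 4 TPM in both and 98 under 2 TPM in both. Within the 37, 22 were under 0.5 TPM in both resistant libraries, and MAGEA6 and CCL20 were listed at 0 in both. For the other 35, the lowest parental value was 4.97-fold (PTPRE) to 154-fold (NRK) the highest resistant value, with a median of 13.3-fold, and 27 of the 35 were at 10-fold or more. The members nearest the parental threshold were AMIGO2 (lowest value 4.01 TPM), MAGEA6 (4.02 TPM) and BPIFB4 (4.17 TPM). Just outside it were MAMDC2 (3.84 TPM), PRR7 (3.81 TPM) and CPA4 (3.73 TPM). On the resistant side NRCAM (highest value 0.96 TPM), PTPRE (0.93 TPM) and TSPAN15 (0.84 TPM) lay just inside, and UNC5B (1.01 TPM), GGT1 (1.02 TPM) and IGLJ2 (1.04 TPM) just outside.

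Of the 37 names, 36 matched a RefSeq gene and all 36 were protein coding, as were 97.0% of the 10323 matched genes among the 10785. AC124789.1 was not matched. A group by known role, drawn up after the genes were seen, gave 5 receptors and adhesion proteins of cell contact and guidance, 7 proteins of the cytoskeleton and its regulation, 5 regulators of kinase signalling, 6 proteins of innate immunity, 5 other membrane proteins, 6 enzymes and secreted proteins and 2 cancer-testis antigens.

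The promoters of these genes were of more than 1 kind. RefSeq windows of 300 bases, 250 before and 50 after the start of transcription on GRCh38.p14, were found for 32 members and not for ABI3, GPR155, KRT18, KRT7 or AC124789.1. The CpG observed/expected ratio measures how far a window keeps its CG pairs, the sites of DNA methylation; CpG islands have a high ratio. A set of 6 windows is shown as examples from both ends of that range and for the near-identical pair MAGEA3 and MAGEA6, with the 250 bases before the start, read 5′ to 3′ on the gene's strand, and every CG pair in capitals. SPRY4, with 22 CG pairs, is chr5:142324248-142324497 on the minus strand, and PERP, with 34, is chr6:138107420-138107669 on the minus strand. BST2, with 2, is chr19:17405631-17405880 on the minus strand, and CCL20, with 3, is chr2:227813592-227813841 on the plus strand. MAGEA3 is chrX:152698544-152698793 on the plus strand and MAGEA6 is chrX:152769690-152769939 on the minus strand, with 15 each.
SPRY4: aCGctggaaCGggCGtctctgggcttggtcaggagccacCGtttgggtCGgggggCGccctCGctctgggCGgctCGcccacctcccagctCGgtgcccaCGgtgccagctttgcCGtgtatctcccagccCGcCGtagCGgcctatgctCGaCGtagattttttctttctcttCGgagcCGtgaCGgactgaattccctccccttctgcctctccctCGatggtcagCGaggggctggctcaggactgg
PERP: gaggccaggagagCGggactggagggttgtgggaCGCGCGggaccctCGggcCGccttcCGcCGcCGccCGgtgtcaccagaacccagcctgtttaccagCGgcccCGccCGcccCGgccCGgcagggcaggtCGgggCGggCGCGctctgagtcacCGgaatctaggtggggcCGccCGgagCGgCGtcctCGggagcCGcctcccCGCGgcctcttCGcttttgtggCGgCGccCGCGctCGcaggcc
BST2: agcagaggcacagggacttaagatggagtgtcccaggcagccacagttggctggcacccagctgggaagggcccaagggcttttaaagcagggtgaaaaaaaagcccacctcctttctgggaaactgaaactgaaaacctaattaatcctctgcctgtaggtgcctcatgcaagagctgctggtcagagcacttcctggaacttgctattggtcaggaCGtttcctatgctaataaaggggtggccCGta
CCL20: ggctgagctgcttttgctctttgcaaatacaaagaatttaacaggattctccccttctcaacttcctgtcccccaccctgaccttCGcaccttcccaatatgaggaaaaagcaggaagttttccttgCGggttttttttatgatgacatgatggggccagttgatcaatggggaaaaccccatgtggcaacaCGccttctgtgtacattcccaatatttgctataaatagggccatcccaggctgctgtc
MAGEA3: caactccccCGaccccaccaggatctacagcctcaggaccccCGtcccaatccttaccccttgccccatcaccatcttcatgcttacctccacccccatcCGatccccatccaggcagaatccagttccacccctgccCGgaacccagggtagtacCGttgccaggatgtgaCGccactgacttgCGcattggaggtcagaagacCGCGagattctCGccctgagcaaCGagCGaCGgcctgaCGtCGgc
MAGEA6: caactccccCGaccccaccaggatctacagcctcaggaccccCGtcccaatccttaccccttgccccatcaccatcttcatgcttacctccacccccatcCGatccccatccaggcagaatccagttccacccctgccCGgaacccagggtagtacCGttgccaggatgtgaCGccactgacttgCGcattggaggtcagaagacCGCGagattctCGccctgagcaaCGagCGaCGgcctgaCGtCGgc

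MAGEA3 and MAGEA6 were identical over all 250 bases, whereas the BST2 and CCL20 windows hold hardly any CG pair. Over the 300 bases the CpG ratio ran from 0.971 in SH3BP5 and PERP to 0.0962 in BST2. Its median was 0.651 over the 32 members, 0.839 over 8508 windows of genes at 4 TPM or more in all parental libraries, 0.812 over the 4156 of these under 30 TPM and 0.563 over all 27305 genes with a window. A ratio of 0.6 or more was found in 18 members (56.2%), against 85.1%, 81.6% and 47.7% of those 3 sets. The members therefore stood below the expressed genes and above the set of all genes in this measure, and the difference was not tested. Median GC content was 63.0% in the members, 65.0% in the 8508 genes and 58.3% in all.

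Motif letters were searched on both strands of the 300-base windows, and a match is only a match of letters. TGANTCA, the letters of an AP-1 site, was in 4 members (12.5%), PERP, AMIGO2, NRCAM and SP140L, against 6.09% of the 8508 genes and 9.37% of all windows. TATAAA was in PTPRE and CCL20 (6.25%), against 7.86% and 14%, and can be read near the end of the CCL20 window above. CANNTG, the E-box letters that muscle factors such as MYOD1 read, was in 17 (53.1%), against 65.6% and 73.1%. GCGGGGGCG, the letters of an EGR site, was in 2 (6.25%), against 11% and 6.14%, and TGACGTCA, the letters of a cyclic AMP response element, was in NRCAM (3.12%), against 4.20% and 2.25%. CCGGAAGT, the letters of an ETS site, was in 0 members, against 11.4% and 4.95%, and CACGTG, itself a form of CANNTG, in 0, against 13.1% and 8.77%. With 32 windows, 1 gene is about 3% of the set, and these shares were not tested.

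Cell contact and guidance receptors included the member with the highest parental mean. L1CAM, a neural adhesion molecule of the immunoglobulin superfamily, stood at 30.7 and 34.5 TPM with DMSO, 26.1 and 24.6 TPM in parental cells with MAL3-101, and 0.75 and 0.80 TPM in resistant cells. NRCAM, of the same family, stood at 14.7 and 10.4, 13.4 and 12.8, and 0.54 and 0.96 TPM in the same order. For either gene the lowest parental value was more than 10 times the highest resistant one. EPHB1, an ephrin receptor that guides axons and cell sorting, was low throughout, at 5.05 and 5.44 TPM with DMSO, 4.22 and 4.40 TPM with MAL3-101 and 0.41 and 0.33 TPM in resistant cells. AMIGO2, a leucine-rich-repeat adhesion protein, was at 4.01 to 5.40 TPM in the parental libraries and at 0.50 and 0.35 TPM in the resistant ones. GP6, known as the platelet receptor for collagen, stood at 18.8 and 7.97 TPM with DMSO, 40.3 and 39.3 TPM with MAL3-101 and 0.53 and 0.32 TPM in resistant cells. Its 2 drug-treated parental libraries were far above both DMSO libraries, which themselves differed more than 2-fold.

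Among the proteins of the cytoskeleton, KRT18, a simple-epithelial keratin, stood at 4.93 and 10.0 TPM with DMSO, 17.0 and 16.2 TPM with MAL3-101 and 0.16 and 0.06 TPM in resistant cells. KRT7, another such keratin, was at 4.39 and 9.00, 11.6 and 9.66, and 0.77 and 0.77 TPM. For both keratins DMSO library A was the lowest parental library and both MAL3-101 libraries were above both DMSO ones. KRT8, the filament partner of KRT18, was outside the rule, since it was under 4 TPM with DMSO. Its groups had the same order, at 3.61 and 2.75 TPM, 6.22 and 6.33 TPM, and 0.63 and 0.30 TPM, but DMSO library B was its lowest parental library. KRT18 has many processed pseudogenes, and the rule by which reads were shared among such copies is not stated. The summed level of 6 epithelial markers was 4.11 to 4.21 TPM with DMSO, 6.61 to 6.75 TPM with MAL3-101 and 0.59 to 0.65 TPM in resistant cells. EPCAM made up 3.50 to 6 TPM of these sums in parental cells and 0.23 and 0.19 TPM in resistant cells. The other 5 markers, CDH1, KRT5, KRT14, KRT19 and CLDN4, were under 1 TPM in every library, KRT5 at 0 in all, and the part of such markers in the keratin levels was not tested.

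The other cytoskeletal members act on actin. MYO10, the myosin of filopodia, stood at 7.30 and 6.48 TPM with DMSO, 10.4 and 10.6 TPM with MAL3-101 and 0.43 and 0.44 TPM in resistant cells. RHOJ, a small GTPase known for its role in endothelial cells, stood at 7.89 and 10.99, 6.27 and 6.49, and 0.12 and 0.19 TPM. The endothelial markers CDH5, KDR and VWF were under 1 TPM in every library, and PECAM1, another planned marker, was not found among the gene names. TEK was higher in resistant cells (18.9 and 20.9 TPM) than in parental ones (1.31 to 2.38 TPM). The summed endothelial markers, at 1.70 to 2.93 TPM in parental and 19.3 to 21.2 TPM in resistant libraries, were mostly TEK. The low resistant values of RHOJ were set by the selection. TMSB15B, a thymosin beta that binds actin monomers, stood at 8.70 and 4.96, 6.56 and 5.34, and 0.06 and 0.07 TPM. Its near-copy TMSB15A was at 126 to 158 TPM in parental and 103 and 106 TPM in resistant libraries, so the split of reads between the copies is uncertain. ABI3, an adaptor of the WAVE complex for actin branching, was at 4.74 to 8.50 TPM and then 0.24 and 0.12 TPM, and ARHGEF6, an exchange factor for Rac and Cdc42, at 4.62 to 5.88 TPM and then 0.75 and 0.82 TPM. For ARHGEF6 the parental groups overlapped.

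The regulators of kinase signalling were led by SPRY4, an inhibitor of receptor tyrosine kinase signalling that the MAP kinase pathway itself induces. It stood at 23 and 28.5 TPM with DMSO, 31.2 and 28.3 TPM with MAL3-101 and 0.31 and 0.34 TPM in resistant cells, and the 2 parental groups overlapped. PKIG, an inhibitor of protein kinase A, stood at 17.6 and 14.5, 6.2 and 7.03, and 0.48 and 0.82 TPM. Both parental MAL3-101 libraries were below both DMSO ones, and the resistant values were lower by the selection. SH3BP5, which binds JNK at mitochondria, was even across the parental libraries, at 10.7 and 9.48 TPM with DMSO and 9.90 and 9.82 TPM with MAL3-101, and at 0.47 and 0.29 TPM in resistant cells. It has an antisense partner, SH3BP5-AS1, and without strand the reads of the pair cannot be told apart. NRK, a kinase of the germinal centre kinase family, had the widest distance of the members with values above 0, with 9.79 and 6.14, 9.53 and 8.63, and 0.03 and 0.04 TPM. PTPRE, a protein tyrosine phosphatase, had the narrowest, with 5.39 and 5.57, 7.16 and 4.62, and 0.93 and 0.42 TPM.

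Innate immunity held 6 members, and 2 of them act in 1 pathway. TLR4, the receptor for bacterial lipopolysaccharide, stood at 6.53 and 6.16 TPM with DMSO, 4.27 and 4.75 TPM with MAL3-101 and 0.32 and 0.21 TPM in resistant cells. MYD88, the adaptor that carries its signal, stood at 8.79 and 8.89, 5.99 and 6.77, and 0.18 and 0.15 TPM. In both genes the 2 parental groups did not overlap, as in 69.8% of all tested genes. The resistant libraries lay below them by the selection. CCL20, a chemokine induced by such signals, stood at 5.19 and 4.55 TPM with DMSO and 6.10 and 4.74 TPM with MAL3-101, and was listed at 0 in both resistant libraries. BST2, the interferon-induced protein tetherin, stood at 8.37 and 17.1, 11.7 and 8.97, and 0.22 and 0.22 TPM, with overlapping parental groups. SP140L, a nuclear body protein, was at 4.58 to 7.14 TPM in parental libraries and 0.35 and 0.36 TPM in resistant ones. LAPTM5, a lysosomal membrane protein best known from blood cells, stood at 22.6 and 15.9, 26.2 and 23.3, and 0.39 and 0.27 TPM. Of 6 blood cell markers, 5 were under 1 TPM in every library, and PTPRC, which marks all white blood cells, was at 0 in 5 of 6 libraries and at 0.06 TPM in the other. The sum of the 6 was 1.86 to 2.30 TPM in parental and 0.98 to 1.10 TPM in resistant libraries, with LYZ the highest of them in every library, and LAPTM5 alone exceeded that sum in every parental library.

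Among the other membrane proteins, TSPAN15, a tetraspanin that directs the protease ADAM10, stood at 20.1 and 18.0 TPM with DMSO, 12.3 and 12.9 TPM with MAL3-101 and 0.84 and 0.39 TPM in resistant cells. FXYD5, a regulator of the sodium pump, stood at 13.8 and 15.2, 9.52 and 10.2, and 0.13 and 0.09 TPM. SLC8A3, a sodium-calcium exchanger of muscle and brain, stood at 9.18 and 16.02, 4.85 and 4.81, and 0.39 and 0.40 TPM. All 3 were lower in both MAL3-101 libraries than in either DMSO library, and SLC8A3 spread most with DMSO. PERP, a desmosome protein induced by p53 and p63, was at 5 to 7.26 TPM in parental and 0.47 and 0.45 TPM in resistant libraries. GPR155, a lysosomal membrane protein, was at 4.69 to 6.28 TPM and then at 0.74 and 0.72 TPM.

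Of the enzymes and secreted proteins, GPX7, a peroxidase of the endoplasmic reticulum, stood at 12.0 and 9.46 TPM with DMSO, 10.1 and 8.46 TPM with MAL3-101 and 0.18 and 0.19 TPM in resistant cells. GCNT1, which branches O-linked glycans, stood at 11.4 and 9.63, 6.6 and 7.46, and 0.53 and 0.61 TPM. TLL2, a tolloid-like metalloprotease, stood at 11.1 and 7.91, 6.35 and 5.72, and 0.57 and 0.45 TPM. GPX7 overlapped between the parental groups, and GCNT1 and TLL2 did not. The protease PRSS12, also called neurotrypsin, was at 6.96 to 10.1 TPM in parental and 0.79 and 0.43 TPM in resistant libraries, and PLAC9, a small secreted protein, at 6.36 to 12.8 TPM and then 0.52 and 0.44 TPM. BPIFB4, of the family of bactericidal/permeability-increasing proteins, was uneven with DMSO, at 11.2 and 4.17 TPM, and stood at 8.08 and 8.38 TPM with MAL3-101 and 0.41 and 0.13 TPM in resistant cells. AC124789.1, for which only the name is known here, was at 6.43 to 10.7 TPM and then 0.66 and 0.40 TPM.

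The cancer-testis antigens were MAGEA3 and MAGEA6, neighbours on the X chromosome with near-identical sequence. MAGEA3 stood at 11.02 and 8.59 TPM with DMSO, 4.57 and 4.40 TPM with MAL3-101 and 0.11 and 0.08 TPM in resistant cells. MAGEA6 stood at 7.02 and 8.95 TPM, 4.02 and 5.30 TPM, and 0 and 0 TPM. Because the sources do not say how reads that fit both were assigned, the sum is the safer value: 18.0 and 17.5 TPM with DMSO, 8.59 and 9.70 TPM with MAL3-101, and 0.11 and 0.08 TPM in resistant cells. The sum was lower in both parental MAL3-101 libraries than in either DMSO library, and low in resistant cells by the selection.

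**Figure D2:**
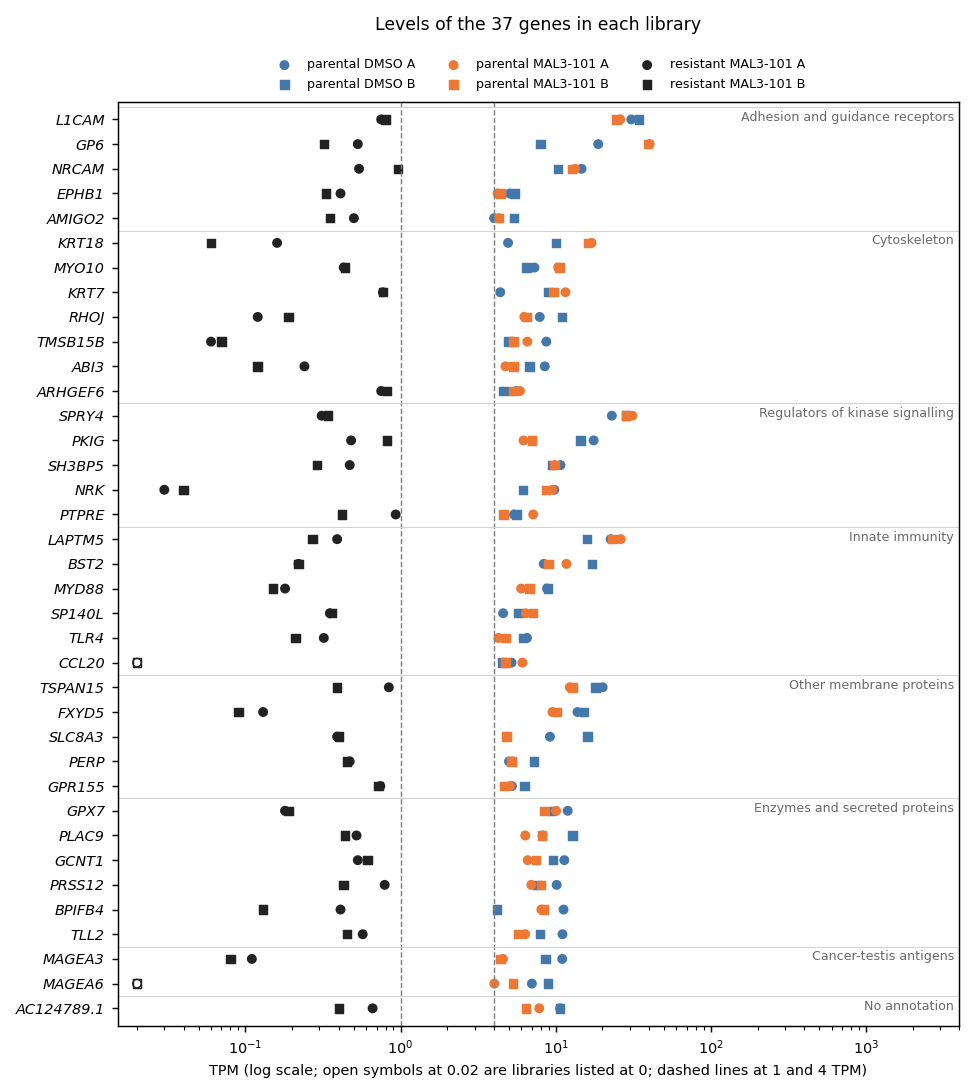
TPM of each of the 37 genes (rows, grouped by role) in the 6 libraries on a logarithmic axis; circles are library A and squares library B, blue with DMSO, orange with MAL3-101 in parental cells and black in resistant cells. Every parental point lies right of 4 TPM and every resistant point left of 1 TPM by the selection, and the resistant points of MAGEA6 and CCL20, listed at 0, are drawn open at 0.02 TPM.

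Relatives of the members stayed above 4 TPM about as often as other expressed genes, though many were lower in resistant cells. For 26 members with well-known relatives, 76 relatives were looked up, by a list drawn up after the members were seen. Of these 33 were at 4 TPM or more in all parental libraries, and 32 of the 33 stayed at 4 TPM or more in both resistant libraries, against 96.2% of all such genes. Tested in resistant against parental cells, both with MAL3-101, by limma on log2(TPM + 1), a scale that understates the change of low genes, 19 of the 33 were lower, 6 higher and 8 not called at an adjusted p under 0.05. Of all 15148 tested genes, 34.8% were lower and 21.3% higher, and of the 10785 genes 39.5% and 22.7%. The exception under 4 TPM was TSPAN33, with 4.49 and 3.47 TPM in resistant and 10.8 to 32.9 TPM in parental libraries. EPHB2 and EPHB3, ephrin receptors like EPHB1, had log2 differences of -2.72 (SE 0.08, adjusted p = 1.69e-06 by limma) and -1.98 (SE 0.10, adjusted p = 1.28e-05 by limma). They stood at 5.24 and 6.11 TPM and at 7.32 and 6.59 TPM in resistant cells. EPHB4 was not called, with -0.17 (SE 0.07, adjusted p = 0.0676 by limma). With the drug it stood at 46.8 and 48.5 TPM in parental and 40.2 and 44.6 TPM in resistant cells. SPRY2 and SPRY1, relatives of SPRY4, had differences of -1.34 (SE 0.05, adjusted p = 4.41e-06 by limma) and -1.03 (SE 0.10, adjusted p = 0.000189 by limma), and stood at 56.2 and 60.4 TPM and at 21.3 and 20.01 TPM in resistant cells. NFASC, of the L1 family, was at 30.7 and 29.3 TPM in resistant cells and 50.7 to 67.9 TPM in parental ones. PKIA, another protein kinase A inhibitor, stood at 15.2 and 15.96 TPM in resistant cells, within its parental range of 13.5 to 18.6 TPM. GPX8, ABI1, ABI2 and PTPRA were at 36.88 TPM or more in both resistant libraries, and ARHGEF7 stood at 33.1 and 35.2 TPM. Between the drug-treated groups ARHGEF7 (0.54) and ABI2 (0.17) were called higher, ABI1 (-0.33) lower, and GPX8 and PTPRA were not called.

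In the pathway of TLR4 and MYD88, the other Toll-like receptors looked up (TLR1, TLR2, TLR3, TLR5, TLR6 and TLR9) were under 1 TPM in every library. TICAM1, the adaptor of the branch that does not use MYD88, was at 3.15 and 3.24 TPM with DMSO, 4.64 and 4.49 TPM with MAL3-101 and 5.29 and 5.08 TPM in resistant cells, and TIRAP, which bridges TLR4 and MYD88, was at 2.24 to 3.21 TPM in all 6. TICAM1 was not called between resistant and parental cells with MAL3-101, with a log2 difference of 0.15 (SE 0.12, adjusted p = 0.296 by limma). In parental cells it was higher with MAL3-101 than with DMSO, by 0.41 (SE 0.12, adjusted p = 0.0277 by limma). The low resistant values of TLR4 and MYD88 follow from the selection, so no contrast with TICAM1 is drawn. SP110, a relative of SP140L, was under the rule's 4 TPM in parental cells, at 2.09 to 3.33 TPM, and at 0.05 and 0 TPM in resistant cells. MAGEA2 was uneven in parental cells, at 1.41 to 4.59 TPM, and at 0.09 and 0.16 TPM in resistant cells.

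Of 32 gene lists, chosen with earlier results of these data known, 8 held a member and together they held 10 members. The other genes of those 8 lists were tested in resistant against parental cells, both with MAL3-101, by the same fit. All 15148 tested genes, with 21.3% higher and 34.8% lower, had a median log2 difference of -0.10. Of 188 other genes in the 8 lists, 43 were higher and 105 lower. The lists were thus read against a background in which lower calls were the more frequent.

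SPRY4 was in the list of MAP kinase feedback genes and ETS factors. Its other 20 tested genes were all lower in resistant than in parental cells with MAL3-101, with a median of -1.64. DUSP6, a phosphatase that restrains ERK, had a log2 difference of -2.60 (SE 0.10, adjusted p = 3.82e-06 by limma), with 45.6 and 40.2 TPM in parental and 5.75 and 6.75 TPM in resistant cells with the drug. ETV5 and ETV1, ETS factors that the pathway induces, had differences of -3.59 (SE 0.14, adjusted p = 3.80e-06 by limma) and -3.07 (SE 0.16, adjusted p = 1.32e-05 by limma). With MAL3-101 in parental cells, 11 of these 20 genes were higher, 2 lower and 7 not called against DMSO. That comparison shares the drug-treated parental libraries, and over all 15148 tested genes it gave 22.6% higher and 18.2% lower. Set beside parental cells with DMSO, DUSP8 was higher in resistant cells, at 10.5 and 11.2 TPM against 3.51 and 8.48 TPM. The rest of the list had lower resistant means, and this was not tested.

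CCL20 was in a list of cytokines and chemokines with 13 other tested genes. In resistant against parental cells with MAL3-101, 10 were lower, 2 higher and 1 not called, with a median of -1.10. In parental cells 8 of these 13 were higher with MAL3-101 than with DMSO, 2 lower and 3 not called, a comparison that shares the drug-treated parental libraries. Of the genes called lower, CXCL1, CSF3 and TSLP had resistant means no lower than their DMSO means, and the rest had lower ones. IL8, a chemokine for neutrophils, stood at 24.2 and 22.8 TPM in parental cells with MAL3-101 and 0.36 and 0.31 TPM in resistant cells, a difference of -4.20 (SE 0.17, adjusted p = 4.43e-06 by limma). With DMSO it was at 0.59 and 1.10 TPM, so it differed from CCL20 in being low in parental cells with vehicle. BST2 was in the list of interferon response and antigen presentation, of whose 20 other tested genes 15 were lower, 1 higher and 4 not called, with a median of -0.74. IFI44, an interferon-induced gene, stood at 6.92 and 10.1 TPM with DMSO, 2.92 and 4.42 TPM with MAL3-101 and 0.22 and 0.04 TPM in resistant cells, -2.03 (SE 0.23, adjusted p = 0.000301 by limma) between the drug-treated groups.

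For the adhesion and guidance genes the lists were mixed. Integrins and immunoglobulin adhesion proteins, with L1CAM and NRCAM as members, had 27 other tested genes, 13 lower, 5 higher and 9 not called, with a median of -0.30. ITGA7, the laminin-binding integrin of muscle, had a difference of -2.78 (SE 0.14, adjusted p = 1.28e-05 by limma), and BCAM, a laminin receptor, one of 1.40 (SE 0.10, adjusted p = 4.77e-05 by limma). Axon guidance, with EPHB1 as a member, had 57, of which 26 were lower, 18 higher and 13 not called, with a median of -0.21. EPHB2, named above for its difference of -2.72, was in this list. EPHA4 went the other way, from 2.31 and 2.90 TPM to 28.0 and 28.4 TPM, 3.02 (SE 0.14, adjusted p = 8.21e-06 by limma). Of 37 other reported targets of PAX3-FOXO1, the fusion factor of alveolar rhabdomyosarcoma and the list that holds NRCAM, 15 (40.5%) were lower, 12 (32.4%) higher and 10 not called, with a median of -0.22.

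Keratins and other intermediate filaments gave 4 lower, 4 higher and 2 not called among the 10 genes besides KRT7 and KRT18, with a median of -0.10. KRT8 had a difference of -2.32 (SE 0.17, adjusted p = 5.09e-05 by limma). KRT17, a keratin of basal epithelium, stood at 479.8 and 466 TPM in parental and 754 and 743 TPM in resistant cells with the drug, 0.66 (SE 0.04, adjusted p = 3.38e-05 by limma), so the keratins did not move as 1 group. Among 5 other cancer-testis antigens 3 were lower, 1 higher and 1 not called, with a median of -1.71. MAGEB1 stood at 13.6 and 12.6 TPM in parental and 0.95 and 1.32 TPM in resistant cells with the drug, -2.73 (SE 0.13, adjusted p = 8.87e-06 by limma). MAGEC1 went from 6.59 and 7.20 TPM to 31.0 and 29.4 TPM, 1.98 (SE 0.15, adjusted p = 4.85e-05 by limma), in the direction opposite to MAGEA3 and MAGEA6.

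The rule did not use the difference between the 2 parental groups, beyond asking for 4 TPM in both, and this comparison was tested. With MAL3-101 for 9 h, 13 of the 37 genes (35.1%) were lower than with DMSO, 3 (8.11%) higher and 21 not called at an adjusted p under 0.05. Of all 15148 tested genes, 22.6% were higher and 18.2% lower, and of the 5559 genes with 4 TPM in all parental libraries and a mean under 30 TPM, 26.6% and 13.9%. The median log2 difference was -0.20 over the 37 genes and 0.02 over all tested genes. With a pseudocount of 0.1 TPM in place of 1 TPM the count fell to 5 lower (13.5%, against 17.6% of all tested genes) and 3 higher, so the share of lower calls among the members depended on this setting.

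The 5 largest falls were those of SLC8A3, with -1.17 (SE 0.23, adjusted p = 0.00648 by limma), PKIG, with -1.16 (SE 0.16, adjusted p = 0.00153), MAGEA3, with -0.97 (SE 0.15, adjusted p = 0.00271), MAGEA6, with -0.67 (SE 0.17, adjusted p = 0.0201), and TSPAN15, with -0.56 (SE 0.15, adjusted p = 0.0245). TLL2, AC124789.1, FXYD5, GCNT1, ABI3, MYD88, TLR4 and L1CAM fell by 0.56 to 0.35. The 3 rises were those of GP6, with 1.61 (SE 0.32, adjusted p = 0.00705 by limma), KRT18, with 1.12 (SE 0.27, adjusted p = 0.0140), and MYO10, with 0.54 (SE 0.12, adjusted p = 0.0117). In these 16 genes both MAL3-101 libraries lay on the same side of both DMSO libraries. In all, the groups did not overlap in 23 of the 37 genes (62.2%) and overlapped in 14, while 69.8% of all tested genes, and 70.4% of those at 4 TPM in all parental libraries with a mean under 30 TPM, had groups that did not overlap. SPRY4 was not called, with 0.21 (SE 0.13, adjusted p = 0.224 by limma), nor was KRT7, with 0.66 (adjusted p = 0.0905 by limma). By role, the calls were 0 higher and 2 lower of 6 innate immune genes, 0 and 3 of 5 other membrane proteins, 0 and 2 of 6 enzymes and secreted proteins, 0 and 1 of 5 regulators of kinase signalling, 2 and 1 of 7 cytoskeletal genes, 1 and 1 of 5 adhesion and guidance receptors, and 0 and 2 of 2 cancer-testis antigens.

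**Figure D3:**
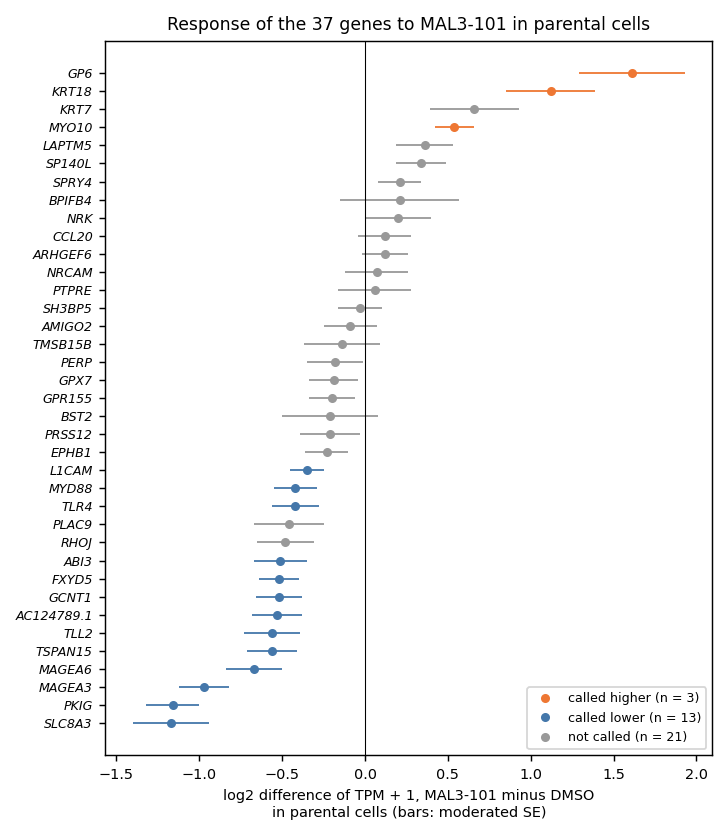
Log2 difference of TPM + 1 between MAL3-101 and DMSO in parental cells for the 37 genes, with bars of 1 moderated standard error from limma, coloured by call. The 3 orange genes, GP6, KRT18 and MYO10, were called higher, the 13 blue genes lower, from L1CAM (-0.35) to SLC8A3 (-1.17), and the 21 grey genes were not called.

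These calls rest on 2 libraries a group. Over 14 settings of the fit, only PKIG, MAGEA3 and SLC8A3 were called in every one, with highest adjusted p-values of 0.0222, 0.0293 and 0.0493 by limma. Without parental MAL3-101 library A these 3 were the called members, and without its library B MAGEA6 was called as well, while GP6 then had an adjusted p of 0.0535 and of 0.0514 by limma and KRT18 of 0.0860 and 0.0746. The sign of 8 members, none of them among the 16 called, depended on which DMSO library was left out. The widest of these was BPIFB4, with a difference of 0.84 without DMSO library A and -0.41 without library B, followed by BST2, with -0.69 and 0.27. KRT7, whose DMSO library A was also the lower, was called with 1.10 (adjusted p = 0.00213 by limma) when DMSO library B was left out.

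The 36 placed genes were spread over 15 of 24 chromosomes, and 9 chromosomes held 0. The X chromosome held 6, ARHGEF6, L1CAM, MAGEA3, MAGEA6, NRK and TMSB15B, which is 16.7% of the placed members against 3.40% of the placed genes at 4 TPM or more in all parental libraries. Chromosome 10 held 4, PLAC9, PTPRE, TLL2 and TSPAN15 (11.1% against 3.70%). Chromosomes 2, 3, 12 and 19 held 3 each, chromosomes 1, 5, 9, 14 and 20 held 2 each, and chromosomes 4, 6, 7 and 17 held 1 each. Of the 17 genes of the reverse rule 13 could be placed, and 0 of these 13 were on the X chromosome. These 13 are too few to set beside a share of 3.40%. No test of these shares was made, and MAGEA3 and MAGEA6, being copies of each other, are not independent.

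The other genes of the X chromosome are given as a description, since by the selection they hold no gene that met the rule. The 345 other X genes at 4 TPM in all parental libraries had a median log2 difference of -0.21 between resistant and parental means. For all 10785 genes it was -0.11. Of the 345, 6.96% were lower by 1 or more, against 5.29% of all, and 95.4% stayed at 4 TPM or more in both resistant libraries, against 96.2% of all.

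**Figure D4:**
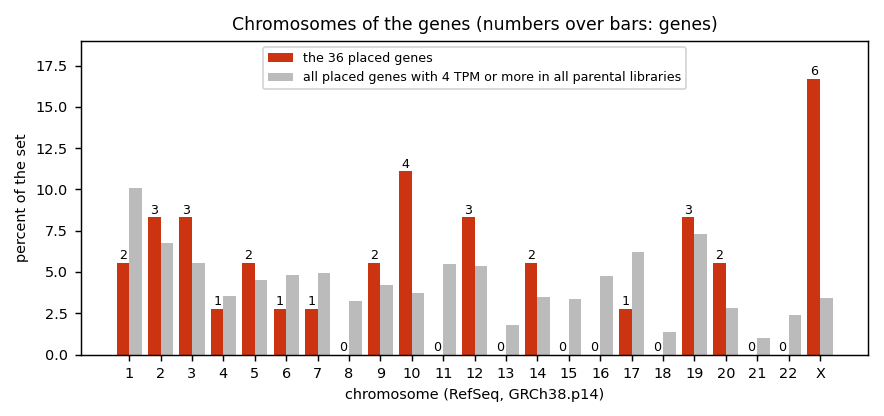
Percent of the 36 placed members (red) and of all placed genes at 4 TPM or more in all parental libraries (grey) on each chromosome, with the number of members over each red bar. The X chromosome held 6 members, 16.7% against 3.40%, and chromosome 10 held 4, 11.1% against 3.70%.

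The members did not lie in runs along a chromosome. With a run defined as members with at most 5 other listed genes between them, 0 members were in one. The closest pairs were MAGEA3 and MAGEA6 with 8 listed genes between, TMSB15B and NRK with 23, CCL20 and SP140L with 31, KRT7 and KRT18 with 41, and MAGEA6 and L1CAM with 51. The 4 members on chromosome 10 were at least 240 listed genes apart.

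The nearest expressed neighbours of the members had mostly small differences. For each placed member the 5 nearest genes on each side with 4 TPM or more in all parental libraries were taken, 322 genes in all. Their median log2 difference between resistant and parental means was -0.22, against -0.11 for the 10785 genes. Of the 322, 21 (6.52%) were lower by 1 or more, against 5.29%, and 8 (2.48%) higher by 1 or more, against 1.76%. Medians around single members ran from -0.67 to 0.26, with 0 members at -1 or less and 4 at -0.5 or less: NRCAM (-0.67), MYD88 (-0.55), GPX7 (-0.52) and TLL2 (-0.52). All 10 neighbours were below 0 around NRCAM, from -1.64 to -0.38, and around GPX7, from -0.75 to -0.37, where 60.6% of the 10785 genes were below 0.

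A few members had neighbours with large differences. Both genes beside L1CAM were lower in resistant cells: PDZD4 had a mean of 10.2 TPM in parental and 0.935 TPM in resistant libraries, and ARHGAP4, on the other side, one of 11 and 3.04 TPM (a log2 difference of -1.57). Around NRCAM, 3 of the 10 neighbours were lower by 1 or more, LAMB1 (-1.09), DNAJB9 (-1.64) and LRRN3 (-1.32). Near GP6, TNNT1, the slow skeletal troponin T, went from 774 to 62.3 TPM and DNAAF3 from 13.9 to 1.88 TPM, while RDH13, directly beside GP6, went from 24.2 to 15.1 TPM. CHRNA1, a subunit of the muscle acetylcholine receptor, went from 312 to 51.0 TPM near GPR155, where the median of the 10 neighbours was 0.18. Others were higher in resistant cells: ITM2C, near CCL20 and SP140L, went from 12.7 to 73.2 TPM, USP53, near PRSS12, from 13.0 to 62.4 TPM, and RFK, beside GCNT1, from 22.3 to 47.7 TPM. PID1, which lies between CCL20 and SP140L, went from 7.82 to 1.42 TPM, so a higher and a lower neighbour lay near the same pair, and these differences were not tested.

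**Figure D5:**
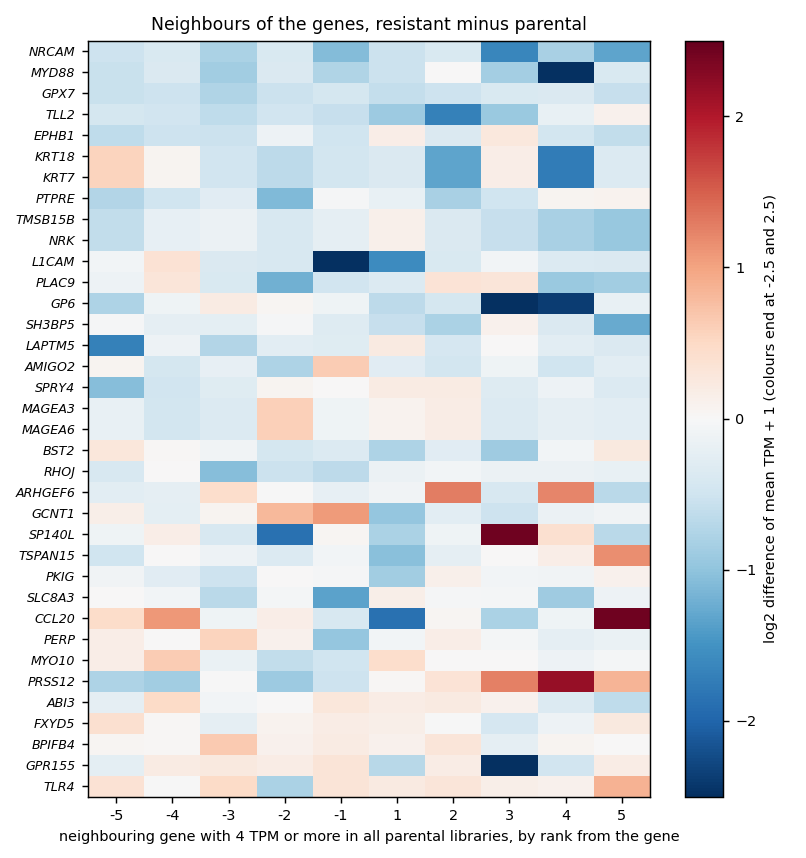
Log2 difference of mean TPM + 1, resistant minus parental, for the 5 nearest genes on each side (horizontal axis, by rank from the member) of each placed member (rows, ordered by their median from NRCAM at the top to TLR4 at the bottom), limited to genes at 4 TPM or more in all parental libraries; blue is lower and red higher in resistant cells. Medians ran from -0.67 to 0.26, and the darker cells include PDZD4 and ARHGAP4 on either side of L1CAM and the adjacent TNNT1 and DNAAF3 near GP6.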

How the data were processed

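Levels in 6 libraries were deposited as TPM for each gene name, made by the authors with RSEM, DESeq and the genome build hg19 per the submitters' processing notes. No version, aligner, annotation or strand setting is named; these were not given in the sources used here. TPM keeps no read depth, so the depth and counting error behind a value are unknown. Libraries were grouped by their descriptions, since the titles of the DMSO libraries name the drug too. The rule on TPM was applied to all gene names. The 15148 genes that reached a group mean of 1 TPM anywhere were fitted as log2(TPM + 1) with limma 3.58.1 in R 4.3.3, with 3 group means, a mean-variance trend, 3 residual and 4.17 prior degrees of freedom, and Benjamini-Hochberg adjustment over all tested genes. The median standard error was 0.105. The fit was tested on simulated data. Chromosomes, gene order and promoter windows came from RefSeq on GRCh38.p14, matched by symbol; since the files rest on hg19, coordinates are given only for the windows printed. For a gene with several windows, ratios are means and a motif in any window counts.

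The members, lists and tests were chosen with earlier results of these data known. All members are named: by the naming rule the 25 with the highest parental mean, the largest changes with MAL3-101, members of lists and those nearest a threshold, with up to 2 relatives, and the others to account for each. Further relatives, genes of other lists and neighbours named beside them were chosen after their values were seen. Alternatives were other thresholds, scalings, pseudocounts (0.1 and 0.5 TPM) and filters, a fit of the parental libraries alone, a replicate block and each library left out; those for listed genes and the sets under 30 TPM were added after seeing the data. The rest was done in Python 3.11.15, pandas 2.3.3 and matplotlib 3.10.9.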

Additional observations from a re-analysis of the deposited data

How the results depend on the processing

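The number of genes under the rule followed its thresholds: 104 with 2 TPM in place of 4 TPM in parental libraries, 9 with 8 TPM, 22 with under 0.5 TPM and 98 with under 2 TPM in resistant libraries, in place of 37. Group means gave 52 genes, median-ratio scaling 35 and TPM without mitochondrial genes 38, of which 35 were among the 37. With 1 library left out the rule found 38 to 45 genes. These hold all 37 by construction, since leaving out a library only removes a condition, so this is no sign of stability. The 16 members called with MAL3-101 became 8 with a pseudocount of 0.1 TPM, 12 with 0.5 TPM, 6 when all genes above 0 were tested and 14 with the parental libraries alone. Leaving out 1 library gave 3 to 17, with 3 without parental MAL3-101 library A and 4 without its library B, and the genes called among all tested, 6181, became 3158 to 7708, with 3158 and 3353 without those libraries.

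Deviations of libraries with the same letter correlated across genes at 0.03, -0.02 and -0.02. No shared effect of the letters A and B was seen, which cannot show whether the samples were handled in pairs. A fit with the letter as a replicate block called 13 members and 5942 genes. Among the settings run, 3 of the 16 calls held in every one. Signs changed only with a library left out and in none of those 16 genes: NRCAM lay between -0.16 and 0.31, BST2 between -0.69 and 0.27, SH3BP5 between -0.11 and 0.05, NRK between -0.10 and 0.50, BPIFB4 between -0.41 and 0.84, TMSB15B between -0.49 and 0.22, PTPRE between -0.21 and 0.33, PERP between -0.41 and 0.05, CCL20 between -0.03 and 0.28, and AMIGO2 between -0.27 and 0.08. Of the listed genes that are not members, 105 were lower in resistant cells, and 85 to 118 over all alternatives. With up to 10 genes between them, MAGEA3 and MAGEA6 form a run, so 2 members in place of 0. The median CpG ratio of the members lay 0.188 below that of expressed genes, a difference of -0.188, and 0.088 above that of all genes. With 2 libraries a group and no depth, small differences among genes near 4 TPM could not be resolved.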
